A study of Mus musculus with 6 samples.

Results

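Apoe, Trem2 and 8 further genes of lipid handling were examined in brain microglia at the peak of experimental autoimmune encephalomyelitis (EAE), an immune attack on myelin that models multiple sclerosis in mice. The genes were listed by symbol: Apoe, Trem2, Tyrobp, Lpl, Fabp5, Plin2, Nceh1, Abca1, Abcg1 and Soat1. Of these 10 genes, 9 were measured among 19505 named genes, each by 1 probe set, and Soat1 was not analysed here. All samples came from female C57BL/6 mice immunised under the skin with 100 μg of recombinant myelin oligodendrocyte glycoprotein in 100 μL of IFA, with 300 ng of pertussis toxin given into a vein that day and again 48 h later. One group of 3 samples carried a conditional knock-out in B cells (CKO), and 3 samples were controls. The series title ties the knock-out to B cells that express GM-CSF, but the sources used here do not give the deleted gene, the Cre driver, the alleles of the controls, the age of the mice or how microglia were isolated. Each sample was hybridised to 1 array and gave 22206 log2 expression values. Nothing states that replicates are separate mice, so the p-values reflect the variation among these samples alone, part or all of which may be technical.

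Microglia that engulf myelin must process its cholesterol and fatty acids. TREM2 is a surface receptor that binds lipids and lipoproteins such as APOE and signals through the adaptor TYROBP (DAP12). Inside the cell, cholesteryl esters and triglycerides are stored in droplets coated by PLIN2, the esters are hydrolysed again, and the pumps ABCA1 and ABCG1 hand free cholesterol to lipoproteins. Apoe, Lpl and Fabp5 belong to the genes that microglia induce near plaques and demyelinated tissue.

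Apoe, Plin2 and Nceh1 had lower means in CKO microglia than in controls (log2 differences of -1.84, -1.72 and -1.86), with no overlap between the groups, while Abca1 stood at nearly the same value in both. Trem2, Lpl, Fabp5 and Abcg1 had lower CKO means within overlapping groups, and Tyrobp a small difference without overlap. No gene of the set passed the test over all probe sets (limma, Benjamini-Hochberg adjusted p under 0.05), for which the background was 0.00901% of probe sets, 2 in all. At an unadjusted p under 0.05, 4 of 9 were lower in CKO (Apoe, Tyrobp, Plin2 and Nceh1), against 6.35% of all probe sets. The same 4 had groups that did not overlap, against 8.48% of all probe sets with every CKO value below every control value. The genes were chosen with earlier results of these data known, so these counts beside the background are descriptions. All 9 had a lower mean in CKO, where 44.5% of probe sets did. The median difference was -0.67 over the 9 genes and 0.05 over all named genes. All 9 lay above the middle of the probe sets in mean expression (Lpl lowest, at percentile 55.2). Brighter probe sets were themselves lower in CKO: the median difference was 0.06 over all probe sets and -0.11 without the dimmest 50%.

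The arrays differed apart from the groups, and these features stand beside the results for the set. CKO replicates 2 and 3 had narrower values, with interquartile ranges of 3.08 and 3.11, where the remaining arrays had 3.66 to 4.0. Csf1r and P2ry12, which mark microglia, were near the top of the scale in both groups (19.66 to 19.71 and 19.65 to 19.72 in CKO, 19.54 to 19.72 and 18.76 to 19.35 in controls). Genes of other cells were present too. Ngp, a neutrophil granule gene, was at 19.51 to 19.55 in CKO and 19.23 to 19.67 in controls, while 12 of 14 neutrophil markers had lower CKO means. Lyz2, a lysozyme gene of monocytes and macrophages, was at 15.36 to 16.59 in CKO and 17.92 to 18.19 in controls. Slc1a2, an astrocyte glutamate transporter, was at 16.92 on CKO replicate 1 and 15.02 on control replicate 2, and at 10.79 to 12.9 on the other 4 arrays. In such bulk samples, fewer cells of a type and less RNA per cell cannot be told apart.

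**Figure D1:**
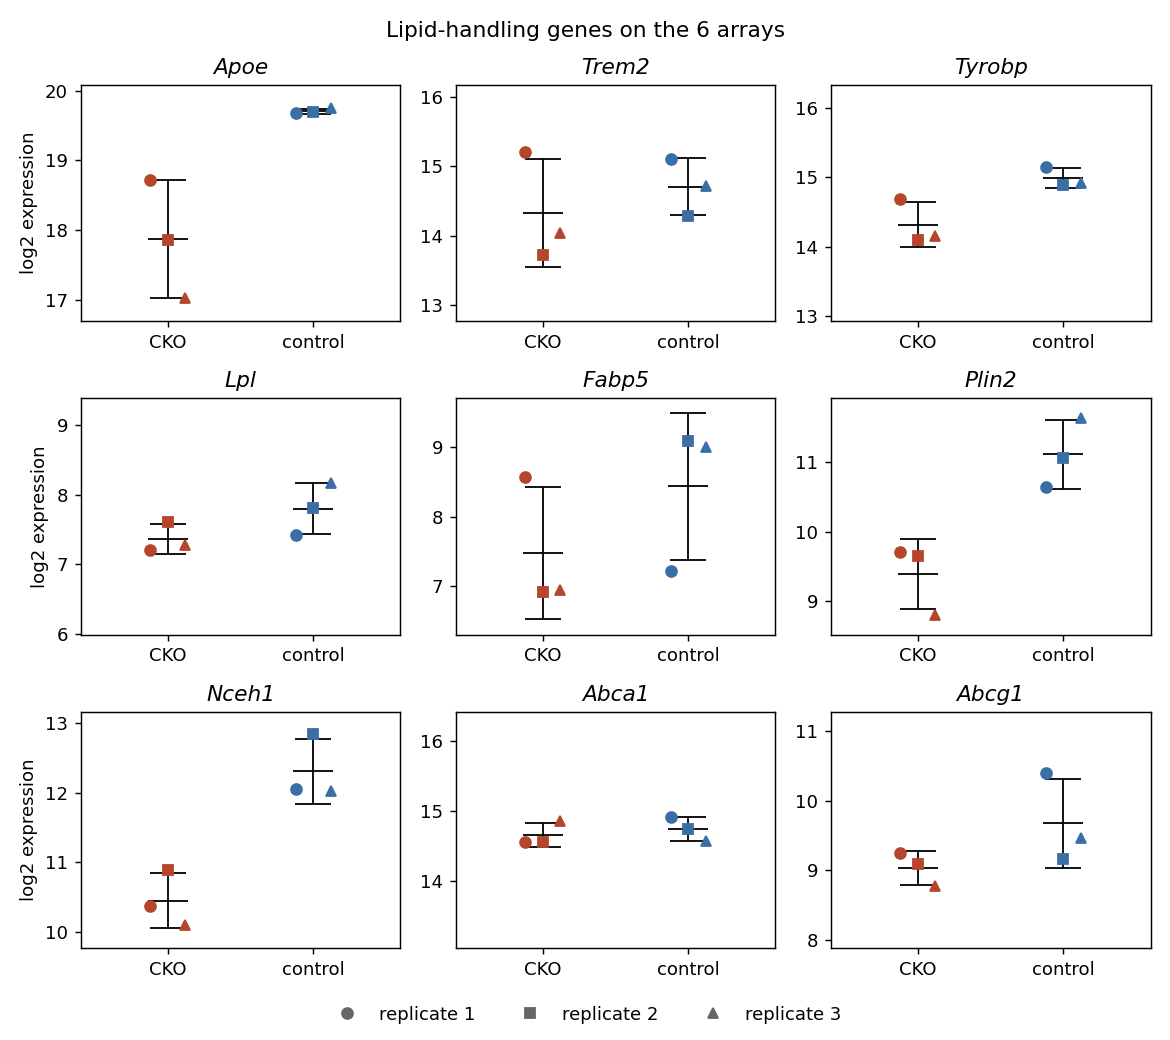
Log2 expression of the 9 measured genes on each array, CKO left and control right, with 1 symbol per replicate, the group mean (long bar) and 1 SD (whiskers); each panel spans the same number of log2 units. Apoe, Plin2, Nceh1 and Tyrobp show no overlap between the groups, and the 6 Abca1 values lie within 0.36 of each other.

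Apoe encodes the main lipid-carrying protein of the brain. It was at 18.72, 17.86 and 17.02 on CKO replicates 1, 2 and 3, and at 19.68, 19.69 and 19.75 on control replicates 1, 2 and 3. Every CKO value lay below every control value, by at least 0.96. The mean was 17.87 ± 0.85 in CKO and 19.71 ± 0.04 in controls (SD, n = 3 each), a difference of -1.84 (SE 0.42, 95% interval -2.80 to -0.88, limma adjusted p = 0.176). The spread itself was unequal, as CKO values covered 1.7 log2 units and control values 0.07. Control values lay 0.06 to 0.25 below the highest value on their array, where CKO values lay 1.21 to 2.68 below it, so the control values stood near the limit of the scale, and whether this narrowed the difference was not tested.

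Trem2 encodes the lipid-sensing receptor. It was at 15.21, 13.73 and 14.04 on CKO replicates 1, 2 and 3, and at 15.11, 14.29 and 14.72 on the control replicates. The highest of the 6 values belonged to a CKO array and the lowest to another, so the groups overlapped. The difference was -0.38 (SE 0.43, 95% interval -1.36 to 0.60, adjusted p = 0.762). Without CKO replicate 1 it was -0.82, without CKO replicate 2 it was -0.08, without CKO replicate 3 -0.24, without control replicate 1 -0.18 and without control replicate 2 -0.59.

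Tyrobp, the signalling adaptor of TREM2 and of several other myeloid receptors, was at 14.69, 14.10 and 14.16 on the CKO arrays and at 15.15, 14.89 and 14.91 on the control arrays. All CKO values lay below all control values, with a gap of 0.20. The difference was -0.67 (SE 0.28, 95% interval -1.31 to -0.02, adjusted p = 0.495). After centring each on its own mean over the 6 arrays, Tyrobp and Trem2 differed by a root mean square of 0.34 log2 units. Tyrobp and Abcg1 were the closest of the 36 pairs, at 0.32. Tyrobp also lay at 0.39 from Abca1 and 0.42 from Lpl, and profiles of narrow range lie close by this measure. How many other genes lay as near to Trem2 was not computed, so the likeness is not read as particular to receptor and adaptor.

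Lpl and Fabp5 serve the entry and transport of fatty acids. Lpl encodes lipoprotein lipase, which frees fatty acids from lipoprotein triglycerides. It was at 7.21, 7.60 and 7.27 on the CKO arrays and at 7.42, 7.81 and 8.16 on the control arrays. The groups overlapped (difference -0.44, SE 0.30, 95% interval -1.12 to 0.24, adjusted p = 0.631), and the difference was -0.26 without control replicate 3. Fabp5, a cytosolic carrier of fatty acids, was at 8.57, 6.92 and 6.95 in CKO and at 7.22, 9.09 and 9.0 in controls. Within each group 1 array stood apart, CKO replicate 1 among the high values and control replicate 1 among the low ones. Its difference of -0.96 had the widest error of the 9 genes (SE 0.61, 95% interval -2.36 to 0.45, adjusted p = 0.613). It was -1.50 without CKO replicate 1, -1.56 without control replicate 1 and -0.63 without control replicate 2.

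Plin2, which coats lipid droplets, was at 9.71, 9.65 and 8.81 on CKO replicates 1, 2 and 3, and at 10.65, 11.06 and 11.63 on the control replicates. The lowest control value exceeded the highest CKO value by 0.94. Means were 9.39 ± 0.50 in CKO and 11.11 ± 0.49 in controls (SD, n = 3 each), a difference of -1.72 (SE 0.37, 95% interval -2.57 to -0.87, limma adjusted p = 0.159).

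Nceh1 encodes neutral cholesterol ester hydrolase, an enzyme that releases cholesterol from stored esters in macrophages. It was at 10.37, 10.88 and 10.09 on CKO replicates 1, 2 and 3, and at 12.05, 12.84 and 12.02 on the control replicates. The gap between the groups, 1.14, was the largest of the 4 genes without overlap. The mean was 10.45 ± 0.40 in CKO and 12.30 ± 0.47 in controls (SD, n = 3 each), a difference of -1.86 (SE 0.35, 95% interval -2.65 to -1.07, limma adjusted p = 0.121), the smallest p of the set. Converted from the log2 difference, the geometric mean in CKO was 27.6% of that in controls for Nceh1 and 30.3% for Plin2.

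Promoters of Apoe, Plin2 and Nceh1 are shown because these 3 genes had the lowest CKO means relative to control. They are from a set of RefSeq promoters (GRCm38.p6) that held a promoter for 6 of the 10 genes. Each runs from 250 bases before to 50 after a transcript start, 5′ to 3′ on the strand of the gene. Capitals mark matches to AGGTCA, the core site of nuclear receptors such as LXR, alone or as a direct repeat 4 bases apart, GAGGAAGT (PU.1), TGANTCA (AP-1), TCACNCCAC (SREBP) and GGAAATTCC (NF-kB), searched on both strands; the core site is contained in the direct repeat. The Apoe window (chr7:19699139-19699438, minus strand, the first of 3 in the table), the Plin2 window (chr4:86670010-86670309, minus strand) and the Nceh1 window (chr3:27182754-27183053, plus strand) read as follows.
Apoe: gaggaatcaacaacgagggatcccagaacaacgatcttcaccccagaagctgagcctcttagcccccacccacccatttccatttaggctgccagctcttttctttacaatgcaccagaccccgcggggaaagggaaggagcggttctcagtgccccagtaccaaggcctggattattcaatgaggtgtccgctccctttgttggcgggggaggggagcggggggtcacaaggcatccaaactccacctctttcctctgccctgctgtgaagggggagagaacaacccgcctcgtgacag
Plin2: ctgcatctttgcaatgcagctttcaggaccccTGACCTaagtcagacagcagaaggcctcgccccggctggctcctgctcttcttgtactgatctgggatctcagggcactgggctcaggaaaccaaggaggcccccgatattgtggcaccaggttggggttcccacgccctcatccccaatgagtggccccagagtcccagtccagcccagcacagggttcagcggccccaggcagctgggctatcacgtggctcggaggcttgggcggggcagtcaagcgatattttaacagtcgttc
Nceh1: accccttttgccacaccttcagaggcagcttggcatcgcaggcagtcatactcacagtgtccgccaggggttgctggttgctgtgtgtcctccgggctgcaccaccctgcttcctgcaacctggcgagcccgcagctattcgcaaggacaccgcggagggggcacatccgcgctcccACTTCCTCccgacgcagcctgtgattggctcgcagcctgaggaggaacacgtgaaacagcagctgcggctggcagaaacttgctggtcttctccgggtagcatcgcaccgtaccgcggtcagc

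None of the motifs was found in the Apoe window, Plin2 held 1 core site on the opposite strand (first base at -218 from the transcript start), and Nceh1 held 1 PU.1 match on the opposite strand (first base at -73). The Trem2 window held 1 core site and 1 AP-1 match, and those of Abca1 and Soat1 held none. Of all 32851 promoters in the table, 16.3% held the core site, 0.0152% the direct repeat, 3.2% the PU.1 motif, 7.81% the AP-1 motif, 1.24% the SREBP motif and 0.317% the NF-kB motif. A match is a description of these letters and not a binding site.

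Abca1 and Abcg1 export cholesterol and are both induced by the sterol-sensing nuclear receptors LXR. Abca1 was at 14.55, 14.56 and 14.86 on the CKO arrays and at 14.91, 14.74 and 14.57 on the control arrays. The groups overlapped almost fully, with a difference of -0.08 (SE 0.26, 95% interval -0.69 to 0.52, adjusted p = 0.927). Its sign depended on the scaling, as the difference was 0.23 under quantile normalization and 0.16 under cyclic loess. Abcg1 was at 9.25, 9.09 and 8.77 in CKO and at 10.40, 9.17 and 9.47 in controls. Control replicate 1 was the highest, and the groups overlapped only through control replicate 2, which lay below CKO replicate 1 (difference -0.64, SE 0.37, 95% interval -1.48 to 0.20, adjusted p = 0.577). It was -0.28 without control replicate 1 (adjusted p = 0.913) and -1.0 with CKO replicate 1 and control replicate 2 left out (0.112).

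**Figure D2:**
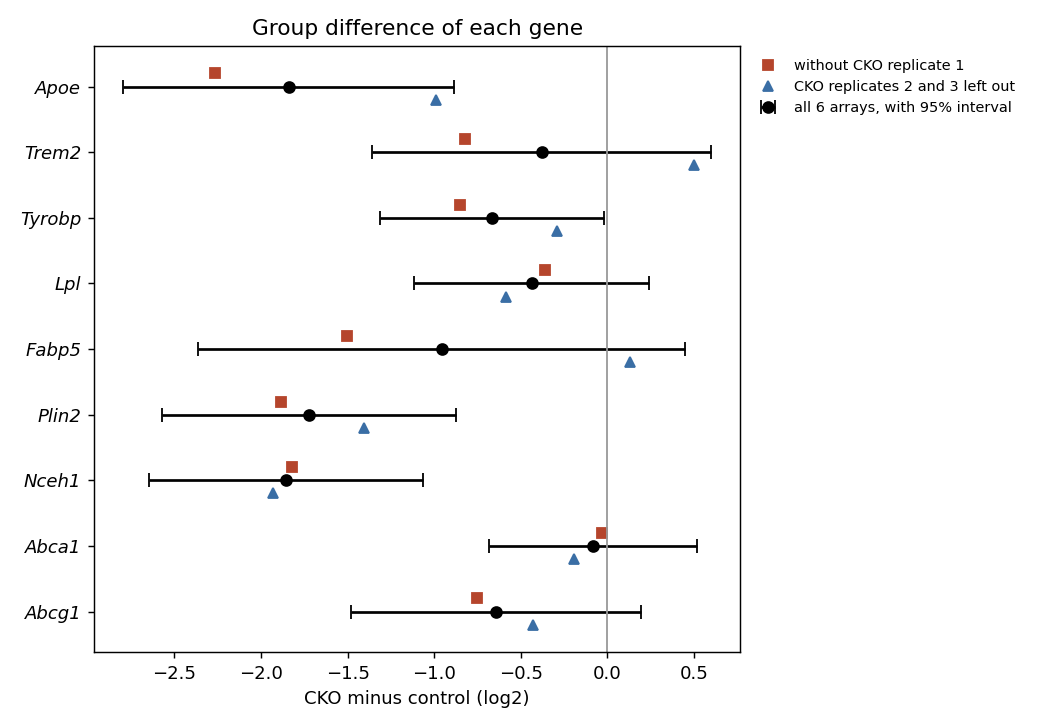
CKO minus control (log2) for each gene: black points with 95% intervals from limma on all 6 arrays, red squares without CKO replicate 1, and blue triangles with CKO replicates 2 and 3 left out. Nceh1 and Plin2 lie between -2.0 and -1.4 in all 3 cases, whereas Trem2 and Fabp5 lie below 0 without CKO replicate 1 and above 0 with that CKO array alone.

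How far the set depended on single arrays differed by gene. CKO replicate 1 exceeded the mean of the other CKO arrays by 1.28 for Apoe, 1.32 for Trem2 and 1.64 for Fabp5, by 0.48 for Plin2 and by -0.12 for Nceh1. Without CKO replicate 1, 3 of the 9 genes passed the adjusted threshold, where 4.94% of probe sets were called lower: Apoe at -2.27 (adjusted p = 0.0114), Plin2 at -1.88 (0.0246) and Nceh1 at -1.82 (0.0247). The CKO group of that setting holds only the arrays of narrow range, so there the knock-out cannot be told apart from the narrow range. The same 3 passed with limma's array weights (4.76% of probe sets called lower) and with CKO replicate 1 and control replicate 2 both left out (6.28% called lower). The latter setting keeps the same narrow CKO arrays, so the same limit holds there. Array weights called 1694 probe sets, against 2209 without CKO replicate 1 and 2 with all arrays. These settings are therefore no independent support for the 3 genes. Over all alternatives tried, the adjusted p ran from 0.00755 to 0.663 for Apoe, from 0.0246 to 0.651 for Plin2 and from 0.0214 to 0.521 for Nceh1. With CKO replicates 2 and 3 left out, the sign turned for Trem2 (0.50) and Fabp5 (0.13), and Apoe differed by -0.99.

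Marker lists of other cells differed beside these genes, none of their genes passing the adjusted threshold, and their part in the differences was not tested. All 16 monocyte and macrophage markers were lower in CKO, 13 of them at an unadjusted p under 0.05, and the list mean was 10.93 to 11.52 on CKO arrays against 12.53 to 13.36 on control arrays. The list deviated from its mean over the 6 arrays by -1.22, -0.86 and -0.63 on CKO replicates 1, 2 and 3 and by 1.13, 0.38 and 1.21 on the control replicates, and Apoe by -0.07, -0.93 and -1.77 and by 0.89, 0.90 and 0.96. All 14 T cell markers were lower as well, 13 at that p (list mean 6.61 to 7.06 in CKO, 8.09 to 9.80 in controls). Lower CKO means were also found for 12 of 14 neutrophil markers (4 at that p, median -0.77), 10 of 12 dendritic cell markers (4 at that p, median -0.68), 9 of 11 B cell markers (2 at that p, median -0.45) and 9 of 11 markers of border-associated macrophages (3 at that p and 1 higher, median -0.47). The means of these 4 lists, like those of the monocyte and T cell lists, were lower on every CKO array than on every control array. The astrocyte list, from cells that also make APOE and ABCA1, deviated by 2.63, -0.79 and -0.79 on CKO replicates 1, 2 and 3 and by -0.85, 1.14 and -1.33 on the control replicates (list mean 8.69 to 12.12 in CKO, 8.16 to 10.62 in controls). It had 14 of 16 markers higher in CKO, 0 of them at that p. Higher CKO means were also found for 13 of 13 neuron markers (2 at that p, median 0.70) and 11 of 13 oligodendrocyte markers (1 at that p, median 0.63). Of 13 endothelial markers 7 were lower (5 at that p) and 6 higher (1 at that p). CKO replicate 1 was the CKO array highest in astrocyte markers and in 6 of the 9 genes (Apoe, Trem2, Tyrobp, Fabp5, Plin2 and Abcg1). The share of all genes highest on that array was not computed, and its values spread more widely than those of the other CKO arrays. Control replicate 2 was the control array highest in astrocyte markers. It was the lowest control for Trem2, Tyrobp and Abcg1 and the highest for Fabp5 and Nceh1. Markers of resting microglia had higher CKO means for 11 of 13 genes, where 10591 of 19505 named genes did. Of the 13, 3 were higher at that p, where 3.55% of all probe sets were.

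**Figure D3:**
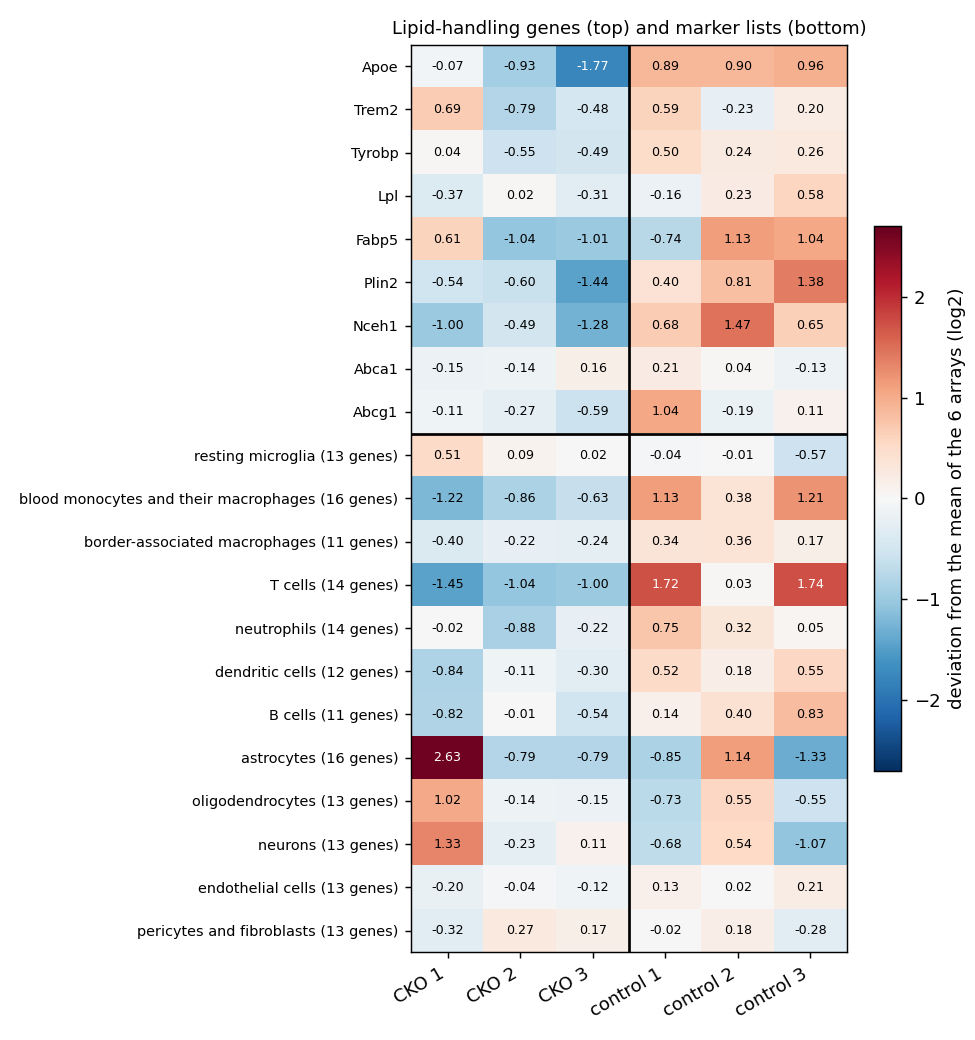
Deviation of each array from the mean of the 6 arrays (log2, red higher, blue lower) for the 9 genes and, below the line, the mean of each marker list; CKO arrays left, control arrays right. Apoe, Plin2 and Nceh1 are blue on every CKO array and red on every control array, as are markers of monocytes, border-associated macrophages, neutrophils, dendritic cells, B cells, endothelial cells and T cells, some of them near 0 on single arrays, while astrocyte markers are highest on CKO replicate 1 and control replicate 2.

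The wider pathways were read from 10 lists of other lipid genes, 167 of them measured. These lists too were chosen with earlier results of these data known, so the shares are descriptions. None of the 167 genes passed the adjusted threshold, and 21 were lower and 2 higher in CKO at an unadjusted p under 0.05. That is 12.6% and 1.2% of them beside 6.35% and 3.55% of all probe sets. The 21 became 43 without CKO replicate 1 and 11 or 12 without CKO replicate 2, CKO replicate 3, control replicate 1 or control replicate 3. Of 24 genes of TREM receptors and DAP12 signalling, 21 had lower CKO means (median difference -0.51) and 4 were lower at that p. Treml2, a TREM-like receptor, was at 9.98 to 10.32 in CKO and 10.89 to 11.31 in controls (-1.0, adjusted p = 0.247). Trem1, an activating receptor of neutrophils and monocytes that also uses TYROBP, was at 8.38, 8.87 and 8.86 in CKO and at 9.08, 10 and 9.93 in controls (-0.97, adjusted p = 0.394). Hcst, the related adaptor DAP10, differed by -0.86. It was dim, at 5.99 to 6.25 in CKO, below the median of each array, and at 6.43 to 7.46 in controls.

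Of 17 genes of lysosomal lipid breakdown and sterol export, 15 had lower CKO means (median -0.40) and 5 were lower at an unadjusted p under 0.05. Gpnmb, a glycoprotein of lipid-loaded macrophages, was at 6.75, 8.87 and 5.20 on CKO replicates 1, 2 and 3 and at 9.02, 12.88 and 12.22 on the control replicates. Its groups were separated by only 0.15 with control replicate 1 the lowest control value (-4.43, SE 1.13, adjusted p = 0.221). Gla, the lysosomal alpha-galactosidase, differed by -1.63 (adjusted p = 0.121) and Npc2, which carries cholesterol out of the lysosome, by -1.33 (0.226).

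Among 15 measured lipoprotein receptors and apolipoproteins, 8 were lower and 7 higher (median -0.04), with 3 lower at that p. Pltp, a phospholipid transfer protein that remodels lipoproteins, was at 10.89, 9.90 and 8.96 in CKO and at 12.99, 12.52 and 11.96 in controls (-2.57, SE 0.50, adjusted p = 0.123). Sorl1, a sorting receptor, differed by -1.07 and Apoc1, an apolipoprotein gene next to Apoe, by -0.94. Apoc1 was dim, at 5.16 to 5.70 in CKO and 6.22 to 6.67 in controls, each value below the median of its array (7.13 to 7.34). For 16 lipase genes and partners of lipoprotein lipase the median was -0.19, and Lipe, hormone-sensitive lipase, differed by -1.36 (adjusted p = 0.345), Lmf2 by -1.24 and Pnpla7 by -0.64. The groups overlapped for Lmf2.

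Genes that make or burn lipids showed medians close to that of all genes with all 6 arrays. CKO replicate 1 stood apart in the fatty acid lists. The synthesis list deviated by 1.04, -0.46 and -0.50 on CKO replicates 1, 2 and 3 and by -0.04, 0.24 and -0.27 on control arrays. The uptake and oxidation list deviated by 0.50, -0.36 and -0.28 and by 0.02, 0.23 and -0.12. Without CKO replicate 1, their genes lower at an unadjusted p under 0.05 rose from 1 to 3 and from 1 to 4. Sterol synthesis and its regulators had 12 of 21 genes lower and 0 at an unadjusted p under 0.05 (median -0.05), a count that was 7 without CKO replicate 1, 7 with control replicate 2 left out as well and 4 with array weights. Among its genes were Ebp, a sterol isomerase, at -0.68, and the regulators Scap and Srebf2 at -0.65 and -0.50. Of 10 LXR and RXR regulators and targets, 6 were lower (median -0.12). Cyp27a1, which makes an oxysterol that activates LXR, was the 1 gene at that p, with 9.70, 8.89 and 9.06 in CKO and 10.60, 10.38 and 10.40 in controls (-1.24, adjusted p = 0.205). Nr1h3, which encodes LXR alpha, differed by -0.40 and Rxrb by -0.73. Medians were -0.03 for lipid droplet and triglyceride synthesis genes, -0.04 for fatty acid uptake and oxidation, 0.09 for fatty acid synthesis and 0.11 for other ABC lipid transporters. Dgat1, which makes triglycerides, differed by -0.70, Agpat2 by -0.94 and Bscl2 (seipin) by -0.75. Fabp4, a fatty acid carrier of macrophages and endothelium, differed by -1.12, Cd36, a scavenger receptor, by -1.25 and Acsl5 by -0.62. Fabp4 was dim, at 5.63 to 6.58 in CKO, below the median of each array, and at 6.49 to 7.76 in controls. The elongase gene Elovl6 was higher in CKO, at 7.41 to 7.73 against 6.88 to 6.98 in controls (0.62, adjusted p = 0.484), whereas Elovl1 and Elovl5 differed by -0.85 and -0.64. Abcg4, a cholesterol exporter related to Abcg1, had a higher CKO mean (0.94), and Abca3 and Abcg3 lower ones (-0.82 and -0.79). The groups overlapped for Scap, Srebf2, Nr1h3, Rxrb, Agpat2, Bscl2, Fabp4, Cd36, Elovl1, Elovl5, Abcg4, Abca3 and Abcg3.

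**Figure D4:**
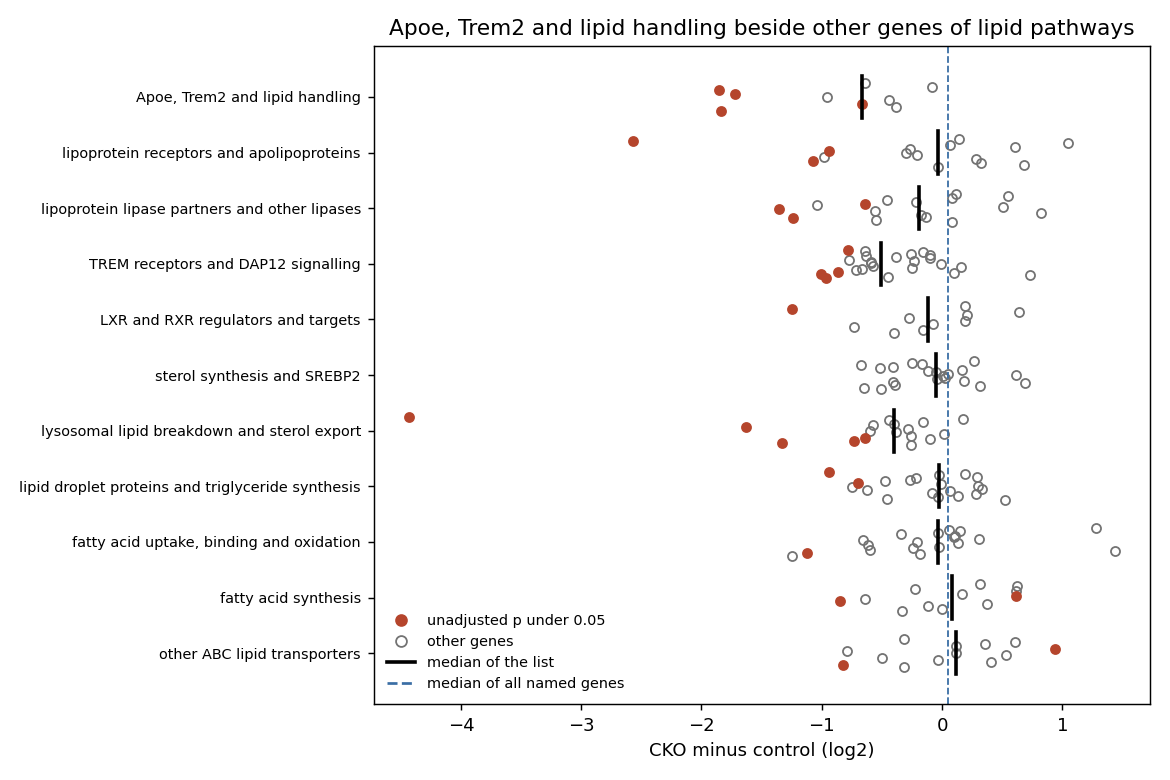
CKO minus control (log2) of every measured gene in the set and in 10 lists of other lipid genes; filled red points have an unadjusted p under 0.05, black bars are list medians and the dashed line is the median of all named genes, 0.05. The TREM and lysosomal lists have medians of -0.51 and -0.40, and the sterol synthesis list has no filled point with all 6 arrays, where 7 of its genes were at that p without CKO replicate 1.

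Genes whose profile over the 6 arrays was most like that of Apoe and of Plin2, the other gene of the set with the widest range, were found by the root mean square difference of centred values over 18531 genes. Nearest to Apoe were Rnh1, a ribonuclease inhibitor (0.18 log2 units), Gpx3, a secreted glutathione peroxidase (0.22), Vcam1, an adhesion molecule for leukocytes (0.24), and Adam8, a surface metalloprotease of leukocytes (0.25). Rnh1 was at 10.23, 9.45 and 8.73 on CKO replicates 1, 2 and 3 and at 11.11, 10.83 and 11.17 on the control replicates. Nearest to Plin2 was Anxa4, a calcium-dependent phospholipid-binding protein (0.07), at 10.27, 10.08 and 9.21 in CKO and 11.23, 11.58 and 12.08 in controls. P2rx4, an ATP-gated channel of microglia, Apobec1, an RNA-editing enzyme first known from Apob mRNA, and Osm, the cytokine oncostatin M, followed at 0.21, 0.24 and 0.26. The median over all genes compared was 1.12 for Apoe and 1.03 for Plin2, and 220 and 225 genes lay within 0.5. With 6 arrays many genes can share a profile, so the likeness is a description.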

How the data were processed

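Biotinylated cDNA from total RNA of 6 samples was hybridised to Affymetrix whole-transcript arrays, 1 per sample. The authors deposited log2 expression values per probe set that RMA, per the submitters' processing notes, made from the probe intensities; its settings and the genome build are not given in the sources read. Values of 2.93 to 19.93 show the log2 scale. No signal over background was used, and the number of arrays limits the precision.

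Of 22206 probe sets, 19572 named 1 gene in the platform annotation, 0 several, and 2634 are unnamed here; all 19572 matched the mouse gene table by Entrez number. The probe set with the highest mean stood for a gene. Groups came from the sample titles. limma 3.58.1 (R 4.3.3) was fitted to all probe sets (CKO minus control, lmFit and eBayes with no covariate), two-sided, with Benjamini-Hochberg adjustment over all of them. Unadjusted p-values describe only. An exact permutation test of 3 against 3 cannot go below 0.1 and was not used. The fit was tested on simulated data.

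Genes named besides the set were, by rule, up to 3 per pathway list with the smallest p, the 4 nearest in profile to Apoe and to Plin2, and up to 2 per marker list with the highest mean; Slc1a2 is one of the latter. The genes examined and all lists were chosen with earlier results of these data known. Alternatives were quantile normalization, median centring, cyclic loess, filters on the dimmest 20% and 50%, array weights, a trended robust fit, arrays left out, the replicate number as a block, averaged probe sets and an adjusted p under 0.1.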

Additional observations from a re-analysis of the deposited data

How the results depend on the processing

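Of the 9 genes, Apoe, Tyrobp, Lpl, Plin2, Nceh1 and Abcg1 had a lower CKO mean under all 17 alternatives. Abca1 turned to 0.23 under quantile normalization, 0.16 under cyclic loess and ran from -0.19 to 0.0017 when 1 array was left out (0.0017 without control replicate 1). With CKO replicates 2 and 3 left out, which keeps 1 CKO array and takes the spread from the controls, Trem2 was at 0.50, Fabp5 0.13, Elovl5 0.15, Lmf2 0.063, Rxrb 0.12, Scap 0.17 and Srebf2 0.09. Genes of the set past the adjusted threshold numbered 0 with all arrays, 3 with array weights or with CKO replicate 1 and control replicate 2 left out, and 0 to 3 when 1 array was left out (3 without CKO replicate 1). At an unadjusted p under 0.05 they were 7 in place of 4 with CKO replicate 1 and control replicate 2 left out. In that setting 6.28% of all probe sets were called lower at the adjusted threshold. The share of all probe sets at the unadjusted p was not computed there, so the rise is not read as particular to the set. Genes with no overlap were 4 to 7 when 1 array was left out, 7 with those 2 arrays left out and 7 with CKO replicates 2 and 3 left out; fewer arrays overlap less by construction. Pathway genes lower at an unadjusted p under 0.05, 21 in all, were 46 with array weights, 47 with CKO replicate 1 and control replicate 2 left out, 8 with CKO replicates 2 and 3 left out, and 11 to 43 when 1 array was left out. Called probe sets, 2 in all, were 1 under quantile normalization and under both filters on dim probe sets, 4 in the trended robust fit, 1694 with array weights, 44 at an adjusted p under 0.1, 2516 with CKO replicate 1 and control replicate 2 left out, 0 with CKO replicates 2 and 3 left out, and 0 to 2209 when 1 array was left out (0 without control replicate 1, control replicate 3 or CKO replicate 3, 1 without CKO replicate 2, 125 without control replicate 2, 2209 without CKO replicate 1). The cause of these changes was not tested. Median centring moved the median difference of all probe sets by -0.12.

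Same-numbered samples did not deviate together (correlations of -0.01, -0.23 and 0.25, 1 of 3 CKO samples closest to its own number). The fit with the replicate block called 0 probe sets and 0 of the 9 genes.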
